A study of Arabidopsis thaliana with 103 samples.

Results

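The genes described here are 56 nuclear genes of Arabidopsis thaliana, out of 33323 in the RNA-seq tables, whose RNA was at least 2 times as abundant in each of 7 mutant groups as in Col-0, the wild type. A gene was included when its mean CPM (the reads assigned to the gene, scaled to a common total for every library) was at least 2 times the Col-0 mean plus 0.5 CPM in morc6-3, morchex, phd1-2, phd1-4, mom2-2, aipp3-1 and aipp3-2. The rule leaves out 9 regulators of the circadian clock and of cold acclimation (CCA1, LHY, RVE8, PRR9, PRR7, PRR5, CBF1, CBF2 and CBF3), of which PRR9 and CBF3 also passed the threshold in all 7 groups. Without Col-0 replicate 1, the highest Col-0 library for most members, 87 genes met the rule. The genes were thus chosen by their measured CPM in the 7 groups and in Col-0, and the differences between those groups are given as a description, without a test.

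The study examined the MOM1 complex, a group of plant proteins that silence transposons and other repeats, and its link through the ATPase MORC6 to RNA-directed DNA methylation. RNA was sequenced from whole seedlings 12 days old, grown on plates under 16 h of light and 8 h of dark at 22 °C, with 3 libraries in each of 14 groups (42 libraries). All plants were in the Col-0 background. The 7 groups of the rule were morc6-3, which is an insertion line of MORC6; morchex, a sextuple mutant that carries morc6-3 together with insertions in MORC1, MORC2, MORC4, MORC5 and MORC7; phd1-2 and phd1-4, lines with a single base inserted in an exon of PHD1 by CRISPR/Cas9; mom2-2, an insertion line of MOM2; and aipp3-1 and aipp3-2, insertion lines of AIPP3. A further 4 mutant groups were mom2-1, a second insertion line of MOM2, pial1-2 and pial2-1, insertion lines of the SUMO ligase genes PIAL1 and PIAL2, and pial1/2, which carries both. These 11 groups shared a single set of 3 Col-0 libraries, so that every comparison with Col-0 rests on the same 3 libraries. A separate set held nrpe1-11, an insertion line of the largest Pol V subunit, with 3 Col-0 libraries of its own. Each line carries 1 allele of each gene it mutates, and the sources used here do not give the hour of harvest.

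Many plant genes are transcribed mainly at one part of the day. The clock proteins CCA1 and LHY peak around dawn, the pseudo-response regulators PRR9, PRR7 and PRR5 follow one after another through the day, and TOC1, LUX and GI act towards the evening. Through these proteins, and through light itself, the clock times the RNA of B-box zinc-finger proteins, of growth genes such as the small auxin-up RNAs and expansins, and of enzymes of photosynthesis and pigment metabolism. The hour of harvest being unknown, no clock time is assigned to any library, and the 56 genes are called the members.

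Total depth was 13164594 to 22894599 expected counts per library in the 7 groups, 14720234 to 21207793 in the other 4 mutant groups, 20808296 to 25378880 in their Col-0, and 26877357 to 33464598 in the nrpe1-11 set. RNA of the targeted gene, as the ratio of the group means to Col-0, was 0.414 for MORC6 in morc6-3, 0.255 for MOM2 in mom2-2, 0.294 for AIPP3 in aipp3-1, 0.116 for AIPP3 in aipp3-2, 0.0099 for MOM2 in mom2-1, and 0.103 and 0.136 for PIAL2 in pial2-1 and pial1/2. In morchex MORC1, MORC2, MORC6 and MORC7 were at 0.258, 0.0789, 0.253 and 0.117 times Col-0, whereas MORC4 was at 2.11 and the scarce MORC5 at 3.28 times, and PIAL1 was at 1.02 and 1.13 times in pial1-2 and pial1/2, so that RNA does not check those alleles. PHD1 RNA, at 1.14 and 1.16 times in phd1-2 and phd1-4, does not check the CRISPR lines, whose insertion of a base need not lower RNA. In whole seedlings, fewer cells of a type and less RNA per cell cannot be told apart. Summed RNA of 14 root markers was 99.6 to 167 CPM in the 7 groups, 117 to 149 CPM in the other 4 and 143 to 146 CPM in Col-0, with overlapping ranges. Summed RNA of 8 wounding and touch genes was 331 to 1640 CPM in the 7 groups. It was 1602 to 3812 CPM in the other 4 and 2110 to 3145 CPM in Col-0, all of whose libraries lay above the 7 groups. In the nrpe1-11 set this sum was 383 to 471 CPM in nrpe1-11 and 198 to 558 CPM in its Col-0. The touch genes TCH3 and TCH4 weighed most in the other 4, with medians of 802 and 1532 CPM, against 101 and 199 CPM in the 7. They were the only 2 of the 8 with all 21 libraries below all 12. VSP2 and LOX2 went the other way, with medians of 183 and 134 CPM in the 7, against 123 and 105 CPM in the other 4. The part that handling played in the values of the members was not tested. Summed RNA of 5 heat shock genes was 48.1 to 140.2 CPM in the 7 groups, 35.8 to 57.7 CPM in the other 4 and 42.8 to 55.5 CPM in Col-0.

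**Figure D1:**
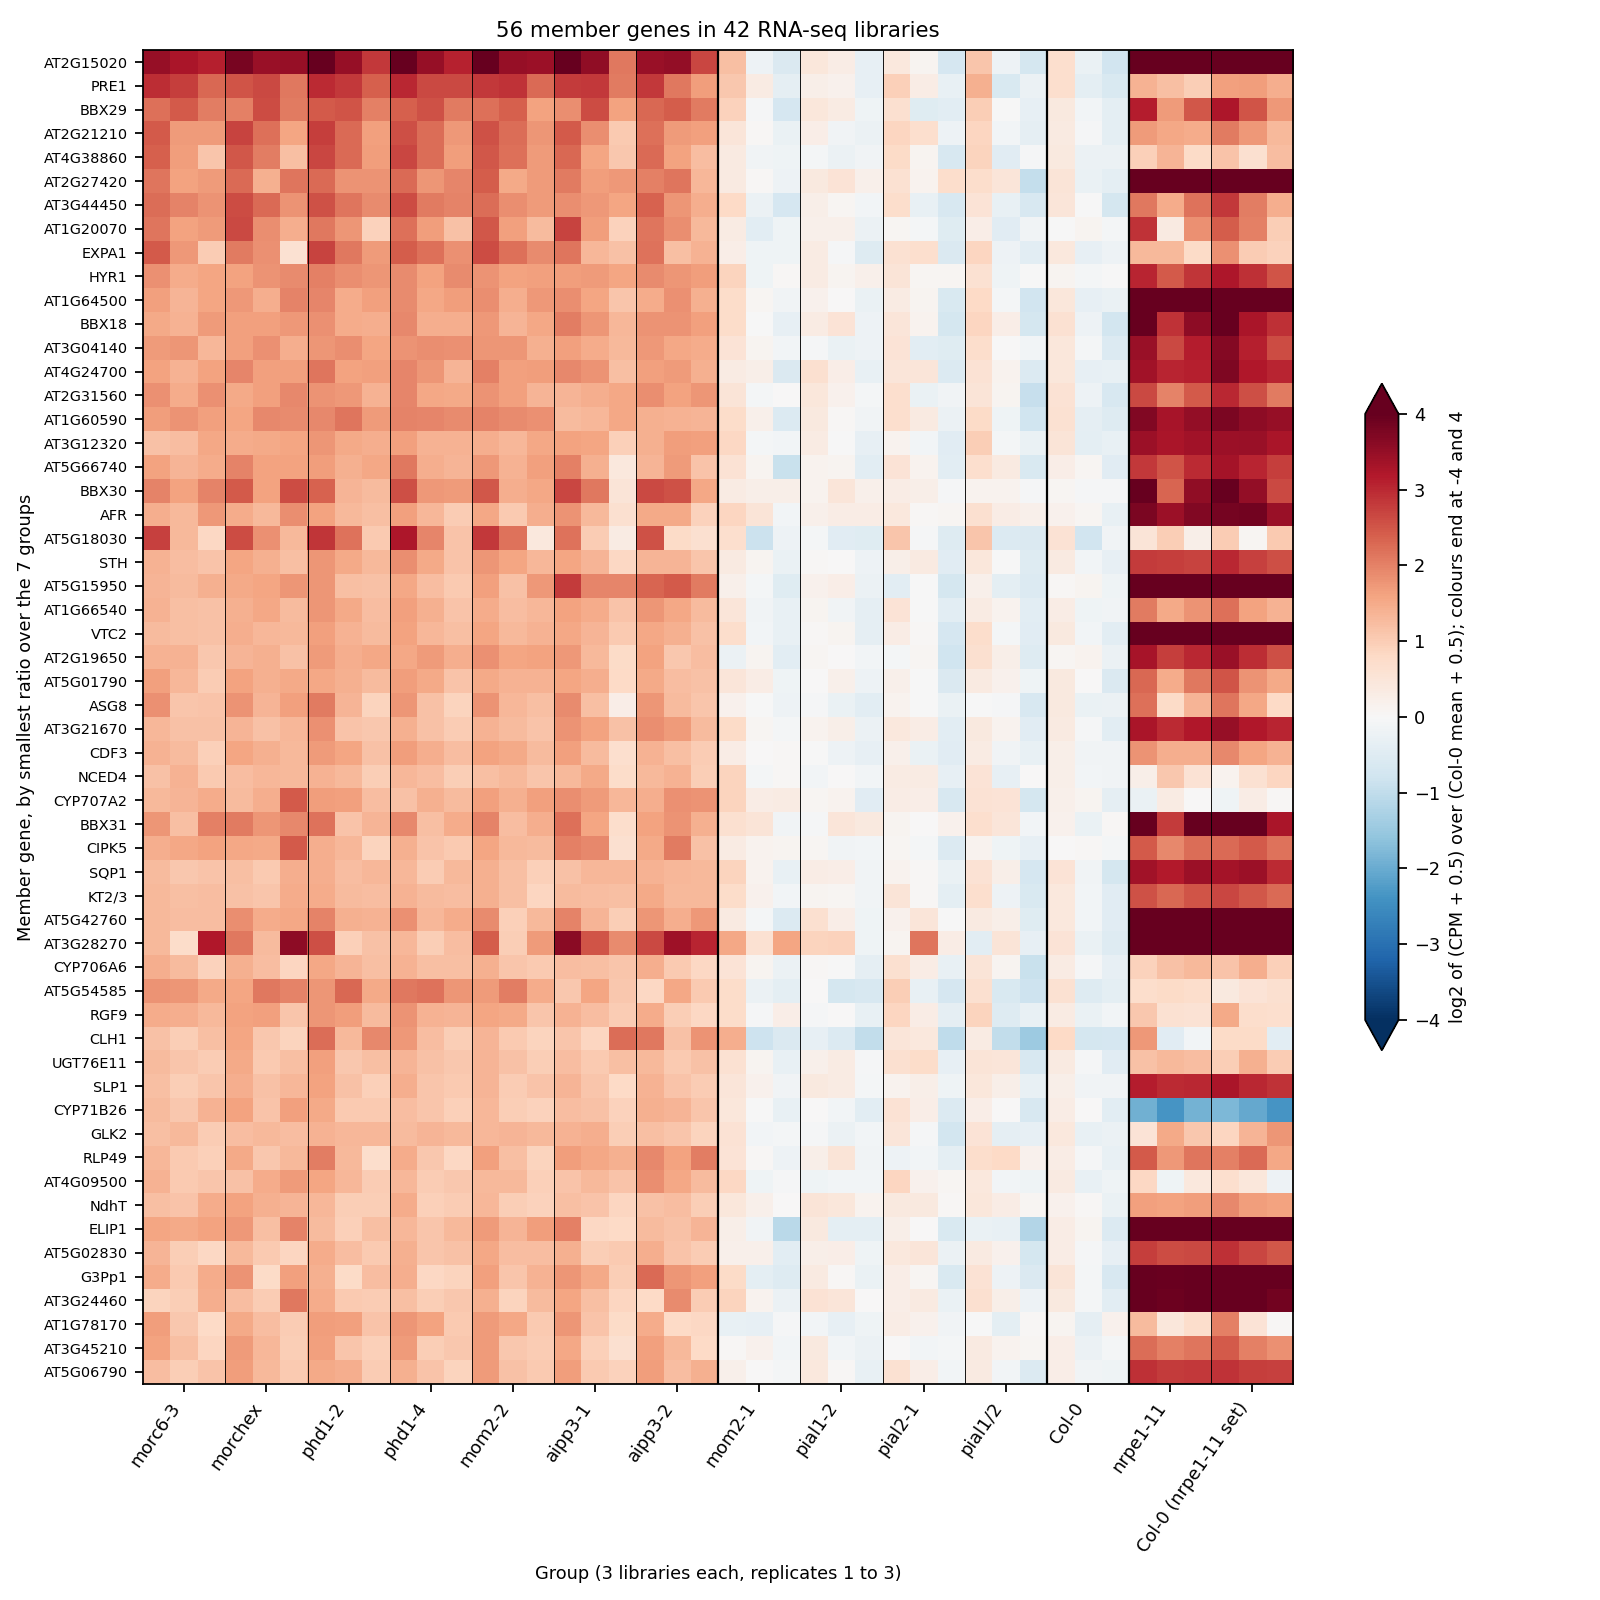
Level of each of the 56 members (rows) in each of the 42 libraries (columns, grouped), as log2 of the CPM plus 0.5 over the Col-0 mean plus 0.5 (the colour scale is given beside the map). The 7 groups that chose the members are high by construction, the other 4 mutant groups lie near Col-0, and both groups of the nrpe1-11 set are high for most members.

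The members split by known role into light signalling, clock output, growth, and plastid and pigment metabolism, with many enzymes and genes given by locus alone beside these. The light-signalling members include 5 B-box proteins, zinc-finger regulators that act with the photomorphogenesis factors HY5 and COP1. BBX18 (AT2G21320) had 12.1, 15.2 and 20.4 CPM as the lowest, median and highest of the 21 libraries of the 7 groups, against 2.58, 5.37 and 8.71 CPM in the 12 libraries of the other 4 mutants and 7.24, 3.89 and 2.52 CPM in the Col-0 libraries. STH, also called BBX25 (AT2G31380), had 25.3, 36.8 and 51.7 CPM in the 21 libraries, against 9.58, 14.2 and 19.3 CPM in the 12 libraries and 17.9, 12.8 and 11.0 CPM in Col-0. BBX29 (AT5G54470) had 4.78, 7.54 and 10.1 CPM in the 21 libraries, against 0.595, 1.20 and 2.92 CPM in the 12 and 1.81, 1.11 and 0.828 CPM in Col-0. For these genes every library of the 7 groups lay above every library of the other 4 and of Col-0.

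BBX30 (AT4G15248) and BBX31 (AT3G21890), small B-box proteins, were far less abundant. BBX30 had 0.239, 1.53 and 2.81 CPM in the 21 libraries, against 0, 0.0967 and 0.216 CPM in the 12 and 0.0421, 0 and 0 CPM in Col-0. BBX31 had 0.657, 1.66 and 2.75 CPM in the 21 libraries, against 0.149, 0.361 and 0.622 CPM in the 12 and 0.294, 0.0961 and 0.236 CPM in Col-0. A count of 0 in Col-0 allows up to 0.118 to 0.144 CPM (3 counts of the library total). With Col-0 this low, the added 0.5 CPM sets much of their ratio, which was at least 2.42 and 2.27. They belong to the 3 members with a Col-0 mean below 1 CPM, whereas 32 members had 5 CPM or more.

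ELIP1 (AT3G22840), an early light-induced protein that protects the photosynthetic membrane in strong light, had 6.04, 8.85 and 14.8 CPM in the 21 libraries, against 1.15, 2.59 and 4.44 CPM in the 12 and 4.17, 3.56 and 2.05 CPM in Col-0. The member tied to the clock most directly was LNK3 (AT3G12320), of a family of night light-inducible proteins that work with clock transcription factors. It had 20.6, 30.4 and 36.6 CPM in the 21 libraries, against 7.48, 9.85 and 20.8 CPM in the 12 and 14.9, 7.74 and 8.35 CPM in Col-0, so that a library of the other 4 mutants reached into the range of the 21. CDF3 (AT3G47500), a cycling DOF transcription factor of the photoperiod pathway, had 37.5, 62.0 and 77.6 CPM in the 21 libraries, against 16.9, 22.1 and 29.3 CPM in the 12 and 27.5, 21.4 and 21.4 CPM in Col-0. ELIP1 and CDF3 did not overlap with either set.

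Growth genes held several of the largest ratios. PRE1 (AT5G39860), a small helix-loop-helix protein that promotes cell elongation, had 4.01, 8.35 and 11.0 CPM in the 21 libraries, against 0.427, 1.12 and 3.30 CPM in the 12 and 1.72, 0.577 and 0.433 CPM in Col-0, and its smallest ratio over the 7 groups was 4.50. EXPA1 (AT1G69530), an expansin that loosens cell walls, was among the most abundant members, with 62.3, 153 and 264 CPM in the 21 libraries, against 26.7, 37.8 and 73.3 CPM in the 12 and 54.4, 32.1 and 34.7 CPM in Col-0. Its 21 libraries lay above all of Col-0 and overlapped with the 12.

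Of 3 small auxin-up RNA genes, which promote expansion of cells in response to auxin, AT2G21210 (SAUR6) had 22.1, 49.8 and 74.6 CPM in the 21 libraries, against 8.17, 10.4 and 19.7 CPM in the 12 and 13.5, 10.1 and 7.92 CPM in Col-0. AT4G38860 (SAUR16) had 28.0, 55.9 and 85.0 CPM in the 21 libraries, against 8.07, 12.1 and 24.6 CPM in the 12 and 17.0, 11.1 and 10.9 CPM in Col-0. Both stood clear of the 12 libraries and of Col-0. The remaining one, AT5G18030 (SAUR21), had 2.4, 7.82 and 21.3 CPM in the 21 libraries, against 0.775, 1.36 and 4.54 CPM in the 12 and 2.99, 0.865 and 1.63 CPM in Col-0, with overlap on both sides. RGF9 (AT5G64770), a precursor of a secreted growth factor peptide, had 37.5, 55.8 and 73.4 CPM in the 21 libraries, against 14.4, 20.4 and 38.5 CPM in the 12 and 26.1, 17.1 and 19.1 CPM in Col-0.

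Genes of the plastid, of pigments and of redox chemistry included NCED4, VTC2 and GLK2, the members with the highest mean CPM over the 21 libraries. VTC2 (AT4G26850), which catalyses the committed step of ascorbate synthesis, had 170.4, 210.5 and 257 CPM in the 21 libraries, against 52.4, 81.7 and 135 CPM in the 12 and 109, 77.3 and 62.3 CPM in Col-0. GLK2 (AT5G44190), a transcription factor of chloroplast development, had 135, 180.4 and 203 CPM in the 21 libraries, against 43.4, 68.2 and 109 CPM in the 12 and 97.9, 59.9 and 61.9 CPM in Col-0. In both genes the sets did not overlap. NCED4 (AT4G19170), a carotenoid cleavage enzyme, had 200.3, 290.2 and 338 CPM in the 21 libraries, against 94.0, 120.4 and 219 CPM in the 12 and 139.8, 109 and 108 CPM in Col-0. CLH1 (AT1G19670), a chlorophyllase, had 31.9, 40.3 and 82.7 CPM in the 21 libraries, against 6.02, 11.4 and 47.7 CPM in the 12 and 30.5, 10.3 and 10.7 CPM in Col-0. Its highest Col-0 library thus lay close to the lowest of the 21. Per length, NCED4, GLK2, EXPA1, RGF9 and VTC2 had mean levels of 155, 151, 146, 140.0 and 119 TPM over the 21 libraries.

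Among the other metabolic genes, the cytochrome P450 gene CYP71B26 (AT3G26290) had 91.6, 109 and 151 CPM in the 21 libraries, against 30.9, 48.4 and 72.6 CPM in the 12 and 60.0, 49.2 and 36.1 CPM in Col-0. CYP706A6 (AT4G12320), also a cytochrome P450 gene, had 59.1, 76.9 and 96.9 CPM in the 21 libraries, against 17.5, 34.9 and 52.4 CPM in the 12 and 41.4, 31.8 and 26.0 CPM in Col-0. SQP1 (AT5G24150), a squalene monooxygenase gene, had 83.8, 106 and 119 CPM in the 21 libraries, against 26.9, 47.8 and 81.0 CPM in the 12 and 63.2, 39.4 and 26.5 CPM in Col-0. None of these P450 or SQP1 values overlapped between the 21 libraries and the 12 or Col-0. AT3G21670 (NPF6.4), of the nitrate transporter family, had 77.9, 93.5 and 139.5 CPM in the 21 libraries, against 28.1, 42.3 and 65.5 CPM in the 12 and 49.5, 37.2 and 28.5 CPM in Col-0. HYR1 (AT3G21760), a glucosyltransferase, had 22.2, 26.9 and 32.6 CPM in the 21 libraries, against 6.68, 8.19 and 14.5 CPM in the 12 and 8.18, 7.20 and 7.52 CPM in Col-0. Its ratio of 3.03 or more was among the 12 highest.

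The member with the largest ratio, AT2G15020, carries no gene name in the annotation used. It had 14.9, 39.8 and 66.2 CPM in the 21 libraries, against 1.71, 3.00 and 7.73 CPM in the 12 and 5.17, 2.50 and 1.62 CPM in Col-0. Its group means were 34.6 ± 4.86 CPM in morc6-3, 42.9 ± 5.89 in morchex, 42.4 ± 18.6 in phd1-2, 42.0 ± 13.2 in phd1-4, 45.9 ± 11.9 in mom2-2, 40.8 ± 25.6 in aipp3-1 and 34.2 ± 10.1 in aipp3-2, against 3.10 ± 1.85 in Col-0 (SD, n = 3 each). The order of the 7 means cannot be read, since they differed by less than the SD of several groups. Other members with high ratios are given here by locus alone. AT2G27420 had 3.40, 4.90 and 7.83 CPM in the 21 libraries, against 1.68, 0.769 and 0.67 CPM in Col-0. AT3G44450 had 10.9, 15.7 and 24.6 CPM, against 5.30, 3.56 and 2.05 CPM in Col-0. AT1G20070 had 6.87, 12.3 and 25.0 CPM, against 3.41, 3.70 and 3.19 CPM in Col-0. AT1G64500 had 27.8, 40.0 and 51.1 CPM, against 17.4, 10.00 and 10.4 CPM in Col-0. At the threshold, the smallest ratios were 2.02 for AT5G06790 in morc6-3, 2.04 for AT3G45210 in aipp3-1 and 2.04 for AT1G78170 in aipp3-2. The genes that just missed it were AT5G67280, at 1.996 in phd1-2, AT3G55110 (ABCG18), at 1.992 in morchex, and AT5G19730, at 1.992 in morc6-3.

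**Figure D2:**
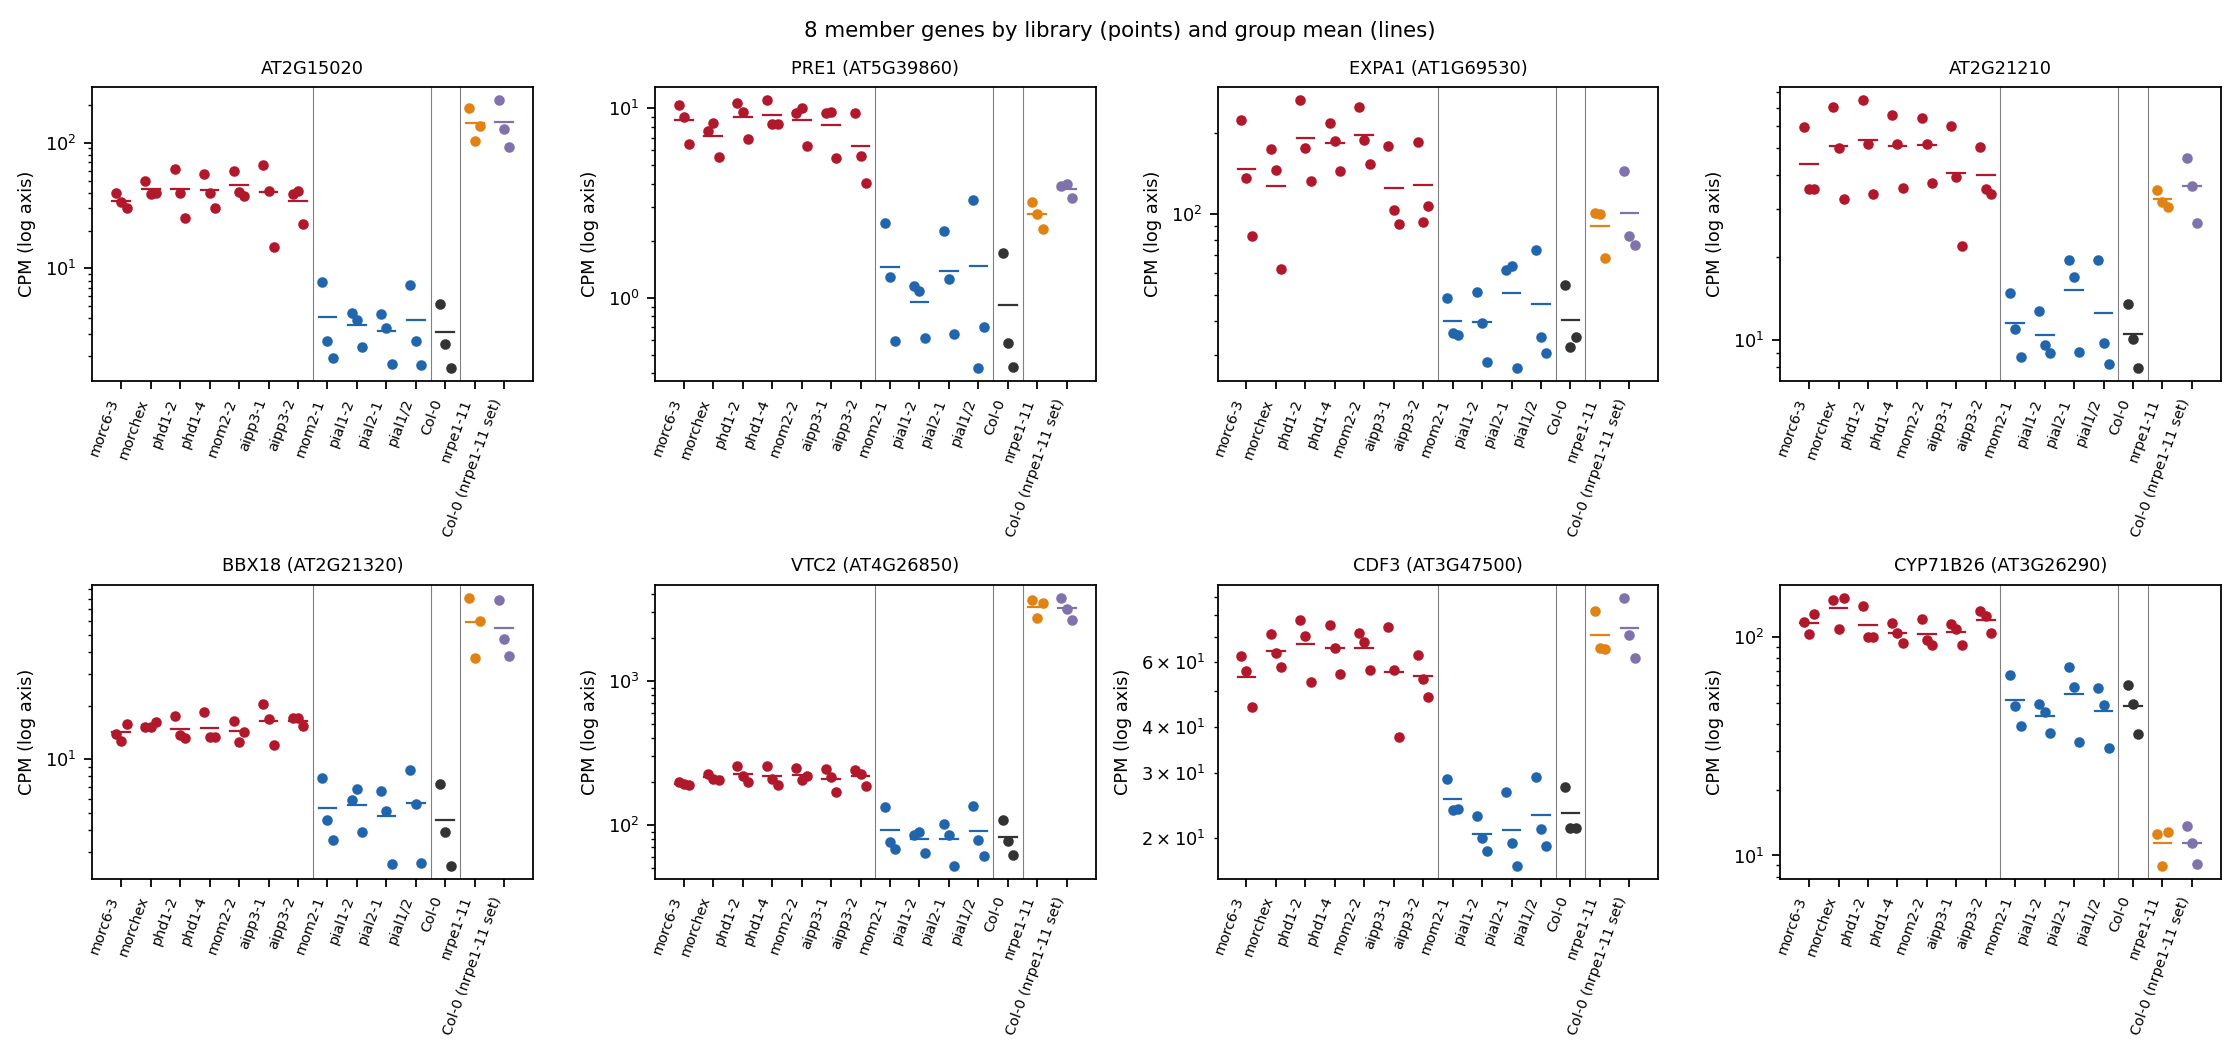
CPM on a log axis in each library of the 14 groups (1 point per library) for AT2G15020, PRE1, EXPA1, AT2G21210, BBX18, VTC2, CDF3 and CYP71B26. AT2G15020 and VTC2 are highest in the nrpe1-11 set, at 92.1 to 217 and 2659 to 3779 CPM, where CYP71B26 is lowest, at 8.99 to 13.6 CPM.

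Promoters are shown for 5 members that stand for the kinds of letters found, chosen after their values and matches were seen. Each is the 250 bases before the annotated start in RefSeq (build TAIR10.1), 5′ to 3′ on the strand of the gene, with matches on either strand to the motifs described further on in capitals. The first belongs to the member with the largest ratio and holds none of them.
AT2G15020, chr2:6493513-6493762, minus strand: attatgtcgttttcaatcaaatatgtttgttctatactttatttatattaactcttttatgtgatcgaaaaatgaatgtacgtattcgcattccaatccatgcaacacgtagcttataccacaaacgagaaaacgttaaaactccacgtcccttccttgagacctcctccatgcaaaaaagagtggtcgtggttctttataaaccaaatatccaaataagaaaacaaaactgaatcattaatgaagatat
AT2G21210 (SAUR6), chr2:9086030-9086279, minus strand: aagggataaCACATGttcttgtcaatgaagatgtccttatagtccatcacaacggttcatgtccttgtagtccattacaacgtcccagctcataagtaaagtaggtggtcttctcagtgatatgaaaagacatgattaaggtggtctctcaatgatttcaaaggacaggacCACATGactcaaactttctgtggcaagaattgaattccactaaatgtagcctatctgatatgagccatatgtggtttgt
EXPA1, chr1:26141476-26141725, plus strand: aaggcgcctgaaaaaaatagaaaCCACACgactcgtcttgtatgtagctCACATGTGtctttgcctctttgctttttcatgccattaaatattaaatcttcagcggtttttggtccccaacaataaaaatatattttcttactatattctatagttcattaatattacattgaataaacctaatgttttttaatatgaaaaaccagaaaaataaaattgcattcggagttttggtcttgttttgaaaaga
LNK3 (AT3G12320), chr3:3923265-3923514, plus strand: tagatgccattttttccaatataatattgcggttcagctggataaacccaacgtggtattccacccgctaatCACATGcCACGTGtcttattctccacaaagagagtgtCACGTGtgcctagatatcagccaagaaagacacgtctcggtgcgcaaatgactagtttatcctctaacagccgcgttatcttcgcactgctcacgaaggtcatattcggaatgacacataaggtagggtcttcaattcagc
ELIP1, chr3:8085670-8085919, minus strand: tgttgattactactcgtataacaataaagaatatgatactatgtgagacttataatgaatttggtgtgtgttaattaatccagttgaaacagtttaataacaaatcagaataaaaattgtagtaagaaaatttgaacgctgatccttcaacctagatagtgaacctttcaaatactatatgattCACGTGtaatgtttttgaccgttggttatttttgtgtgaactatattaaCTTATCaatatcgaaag
The capitals mark the HUD element CACATG at SAUR6, the morning element CCACAC and overlapping HUD elements on both strands at EXPA1, a HUD element and 2 G-boxes CACGTG at LNK3, and a G-box and a GATA core (GATAAG, here on the other strand) at ELIP1.

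Across the 7 groups the members had similar ratios to Col-0, which the rule and the shared Col-0 libraries in part fix. The lowest, median and highest ratios were 2.02, 2.48 and 9.63 in morc6-3, 2.1, 2.89 and 11.9 in morchex, 2.08, 2.78 and 11.8 in phd1-2, and 2.07, 2.60 and 11.7 in phd1-4. They were 2.09, 2.68 and 12.8 in mom2-2, 2.04, 2.54 and 11.3 in aipp3-1, and 2.04, 2.80 and 9.52 in aipp3-2. The largest ratio of a member was most often that in morchex (17 members) and never that in morc6-3, which held the smallest ratio of 18 members. The order of the groups was not tested. In edgeR fits of each mutant group with Col-0, 50 of the 56 members were called higher in all 7 (adjusted p below 0.05 and a log2 fold change of at least 1), beside 0.378% of all features tested, a count that the choice of members fixes. Without Col-0 replicate 2, 4 of all features were so called. In the other direction, 0.704% of the features were called lower in all 7.

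In the other 4 mutant groups the members lay near Col-0. The lowest, median and highest ratios were 0.228, 1.04 and 2.37 in mom2-1, 0.241, 0.931 and 1.43 in pial1-2, 0.159, 0.982 and 2.13 in pial2-1, and 0.08, 0.99 and 1.41 in pial1/2. The lowest ratio in each was that of BBX30, at 0 to 0.216 CPM in these 12 libraries and 0 to 0.042 CPM in Col-0. The 0.5 CPM added to Col-0 sets that ratio, which is not a fall below Col-0. AT3G28270 was the single member at 2 times or more in any of them, in mom2-1 and in pial2-1. All 21 libraries of the 7 groups lay above all 12 libraries of the other 4 mutants in 43 members, beside 1.27% of the 19445 nuclear genes with a mean of at least 1 CPM, and above all 3 Col-0 libraries in 54 members, beside 5.04% of those genes. The rule used the 21 libraries and Col-0, so these counts are descriptive. The exceptions against Col-0 were ASG8 and SAUR21.

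The alleles of MOM2 fell on opposite sides. MOM2 RNA was 1.28, 1.61 and 2.25 CPM in mom2-2 and 0.1, 0 and 0.099 CPM in mom2-1, and the members had a median ratio of 2.68 in mom2-2, against 1.04 in mom2-1. AT2G15020 had 59.6, 40.2 and 37.9 CPM in mom2-2, against 7.73, 2.63 and 1.93 CPM in mom2-1. PRE1 had 9.46, 10.0 and 6.32 CPM in mom2-2, against 2.49, 1.29 and 0.595 CPM in mom2-1. The libraries of the alleles did not overlap for these genes, the allele with the less MOM2 RNA being at the level of Col-0. Both lines are insertions in 1 gene, and an effect of the locus, of the line or of its collection cannot be told apart with 1 set of seedlings per line.

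The members also varied with the replicate number, in groups the rule did not use as well as in those it used. The median member level of a library, as log2 over the Col-0 mean, was highest in the library labelled replicate 1 in 14 of 14 groups and lowest in replicate 3 in 10 of them and in replicate 2 in the other 4. In aipp3-1 it was 1.72, 1.45 and 1.05 in replicates 1, 2 and 3, and in pial1/2 it was 0.56, -0.04 and -0.45. In Col-0 it was 0.37, -0.12 and -0.33. The lowest library of the 7 groups, at 1.05, stood above the highest of the other 4 mutants, at 0.56.

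In the 6 groups outside the rule (mom2-1, pial1-2, pial2-1, pial1/2, nrpe1-11 and its Col-0), replicate 1 was the highest in all 6 for 16 members, against 1.1% of the 19445 genes, and in at least 5 for 36 members, against 5.11%. Replicate 1 stood above replicate 3 in all 6 groups for 34 members, against 6.27% of genes, and replicate 3 was the highest in at least 5 for 0 members, against 3.47%. The labels do not say what libraries with the same number shared, and its part in the values was not tested. Leaving out all libraries numbered 1, all numbered 2 or all numbered 3, a choice made after seeing the data, all remaining libraries of the 7 groups lay above all remaining libraries of the other 4 mutants for 53, 45 and 50 members, beside 4.02%, 1.91% and 2.77% of genes.

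**Figure D3:**
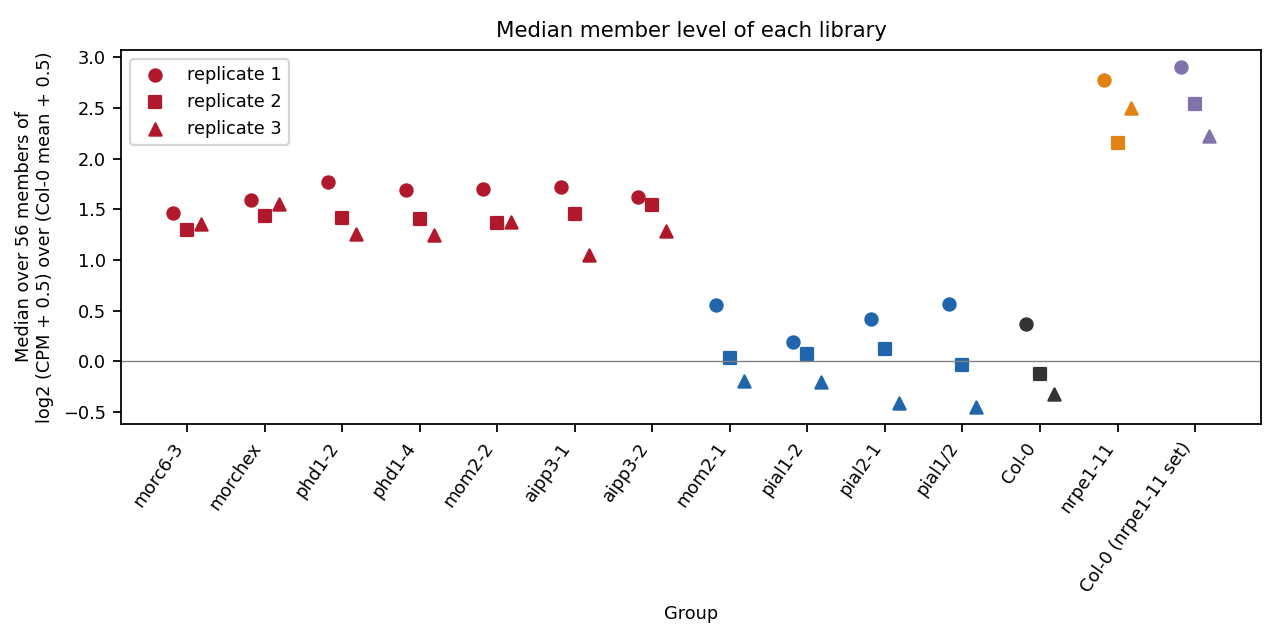
Median over the 56 members of log2 of the CPM plus 0.5 over the Col-0 mean plus 0.5, 1 marker per library with a marker shape for each replicate number. Replicate 1 is the highest in every group, and all 21 libraries of the 7 groups, at 1.05 to 1.77, lie above the other 4 mutants and Col-0 and below the nrpe1-11 set, at 2.16 to 2.90.

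The nrpe1-11 set showed the members higher still, in the mutant and in its own wild type alike. The lowest, median and highest ratios to the other Col-0 were 0.234, 5.53 and 80.3 in nrpe1-11 and 0.233, 5.91 and 88.9 in the Col-0 of that set, with 46 and 49 members at 2 times or more. Over all genes, 1504 of 33323 passed 2 times in nrpe1-11 and 1406 in its Col-0, against 154 in morc6-3, 256 in morchex, 175 in phd1-2, 124 in phd1-4, 140 in mom2-2, 283 in aipp3-1 and 412 in aipp3-2. All 6 libraries of the set lay above all 12 libraries of the other 4 mutants for 43 members, where 25.9% of genes did so, and below them for 1 member, where 18.8% of genes did so. Set, day and place of growth and sequencing cannot be told apart in this contrast of wild types, and summed heat shock RNA in the set was 1169 to 3390 CPM in nrpe1-11 and 2002 to 2776 CPM in its Col-0.

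Compared with the 21 libraries of the 7 groups, the 6 libraries of the nrpe1-11 set lay above all of them for 29 members, below all of them for 5 and overlapped for 22. The share of all genes was not counted for this contrast, so these counts are a description. Against the 12 libraries of the other 4 mutants, 25.9% of all genes lay above and 18.8% below. VTC2 had 3643, 2733 and 3493 CPM in nrpe1-11 and 3779, 3182 and 2659 CPM in its Col-0. ELIP1 had 216, 134 and 174 CPM in nrpe1-11 and 267, 187 and 123 CPM in its Col-0, and AT2G27420 had 144, 82.8 and 144 CPM in nrpe1-11 and 198, 129.5 and 83.0 CPM in its Col-0. Each of these genes was more than 10 times its level in the other Col-0. The 5 members below the 21 libraries, named because of these values, were PRE1, CYP707A2, CYP71B26, AT5G54585 and AT4G09500. CYP71B26 had 12.5, 8.99 and 12.8 CPM in nrpe1-11 and 13.6, 11.4 and 9.12 CPM in its Col-0, under every other library. CYP707A2, an enzyme that breaks down abscisic acid, had 1.95, 3.17 and 2.49 CPM in nrpe1-11 and 2.08, 3.11 and 2.56 CPM in its Col-0, against 2.86, 2.69 and 1.77 CPM in the other Col-0. The growth gene EXPA1 had 101, 99.8 and 68.7 CPM in nrpe1-11 and 143, 82.7 and 76.7 CPM in its Col-0, within the range of the 21 libraries.

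The members were tested where the rule had used neither side. In nrpe1-11 against its own Col-0, the median log2 fold change of the 56 members was -0.06, with a range of -0.44 to 0.26, and 0 were called by edgeR's quasi-likelihood test, beside 0.478% of all features. At an unadjusted p under 0.05 stood 1 member, against 2.89% of all features. This was PRE1, at 3.22, 2.78 and 2.31 CPM in nrpe1-11, against 3.87, 3.97 and 3.38 CPM in its Col-0. Its log2 fold change was -0.44 with a standard error of 0.163 (edgeR adjusted p = 1). The standard errors of the members were 0.062 to 0.726 with a median of 0.229, and for 48 of the 56 the interval of 2 standard errors on either side stayed within 1 log2 unit of no change.

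In pial1/2 against pial1-2, 0 of the 54 members tested were called, beside 0.47% of all features, and 0 had an unadjusted p under 0.05, against 7.58% of all features. The median was 0.12 and the range -0.69 to 0.70, and 43 members were bounded within 1 log2 unit. In pial1/2 against pial2-1, 0 of 54 were called, beside 0.324%, and 1 had an unadjusted p under 0.05, against 6.13%. The median was -0.01 and the range -1.28 to 0.89, and 32 members were bounded. That 1 member was RLP49, a receptor-like protein, at 9.3, 10.0 and 6.3 CPM in pial1/2, against 4.7, 5.0 and 4.1 CPM in pial2-1. Its log2 fold change was 0.89 with a standard error of 0.19 (edgeR adjusted p = 0.268). In the F test of any difference among mom2-1, pial1-2, pial2-1 and pial1/2, 0 of 54 members were called, beside 0.604%, and 1, again RLP49, had an unadjusted p under 0.05, against 9.05%. BBX30 and BBX31 were too low to be tested in these 3 fits. DESeq2 also called 0 members in each comparison.

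Genes of the same pathways outside the members were read from lists of 114 genes. The 7 comparisons share their Col-0 libraries, and calls are at an adjusted p below 0.05 and a log2 fold change of at least 1, both ways, in edgeR. Over all features, 0.901% to 2.68% were called higher and 1.1% to 2.57% lower in a group. Of 16 morning clock genes and partners, 1 was called higher in morc6-3, 3 in morchex, 6 in phd1-2, 3 in phd1-4, 3 in mom2-2, 5 in aipp3-1 and 5 in aipp3-2, and the list medians were 0.42 to 0.77, where the medians over all genes were 0.00 to 0.01. PRR9, a repressor that follows the dawn peak, was called in all 7. It had 21.7, 32.8 and 39.5 CPM as the lowest, median and highest of the 21 libraries, against 3.86, 6.46 and 14.9 CPM in the 12 of the other mutants and 9.54, 6.40 and 3.92 CPM in Col-0. Its log2 fold changes were 2.15 to 2.37 (standard errors 0.247 to 0.319, edgeR adjusted p = 0.000808 to 0.0108). The rule left PRR9 out, but it passed the rule's threshold, so that this repeats what chose the members.

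The dawn genes CCA1 and LHY moved less. CCA1 had 25.7, 39.2 and 63.4 CPM in the 21 libraries, against 17.3, 23.9 and 34.2 CPM in the 12 and 19.2 to 22.3 CPM in Col-0, with log2 fold changes of 0.67 to 1.18 and a call in 6 groups. LHY had 2.03, 3.39 and 4.91 CPM in the 21 libraries, against 0.951, 1.93 and 2.98 CPM in the 12 and 1.35 to 2.36 CPM in Col-0, with a call in 3 groups. In the nrpe1-11 set CCA1 had 496 to 686 CPM and LHY 855 to 1107 CPM, far above every other library. RVE3, a related MYB-like gene, was called higher in 6 of the 7 groups, with log2 fold changes of 2.21 to 3.12, at 0.598 to 3.49 CPM in the 21 libraries, against 0.149 to 0.933 CPM in the 12. Without Col-0 replicate 2 or 3, LHY was called in 0 groups and RVE3 in 1 or 2.

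Later clock genes did not follow. PRR7 had 132, 196 and 231 CPM in the 21 libraries, against 166, 197 and 244 CPM in the 12 and 188 to 219 CPM in Col-0, and PRR5 had 35.6, 51.5 and 66.0 CPM, against 50.6, 57.1 and 88.0 CPM in the 12 and 56.4 to 68.8 CPM in Col-0. Of 11 evening clock genes 0 were called in any of the 7 groups, and the list medians were -0.46 to -0.27. TOC1 had 56.5, 66.8 and 78.3 CPM in the 21 libraries, against 89.9, 99.8 and 116 CPM in the 12 and 96.7 to 122 CPM in Col-0. LUX, a subunit of the evening complex, had 32.6, 40.3 and 47.7 CPM in the 21 libraries, against 50.3, 64.6 and 77.7 CPM in the 12 and 53.8 to 71.6 CPM in Col-0. Their log2 fold changes were -0.79 to -0.63 and -0.71 to -0.58, short of the size needed for a call, although the 21 libraries lay below the 12 without overlap. The nrpe1-11 set had less of each, at 41.6 to 56.3 CPM for PRR7, 0.657 to 1.74 CPM for PRR5, 18.0 to 22.4 CPM for TOC1 and 8.52 to 12.5 CPM for LUX.

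**Figure D4:**
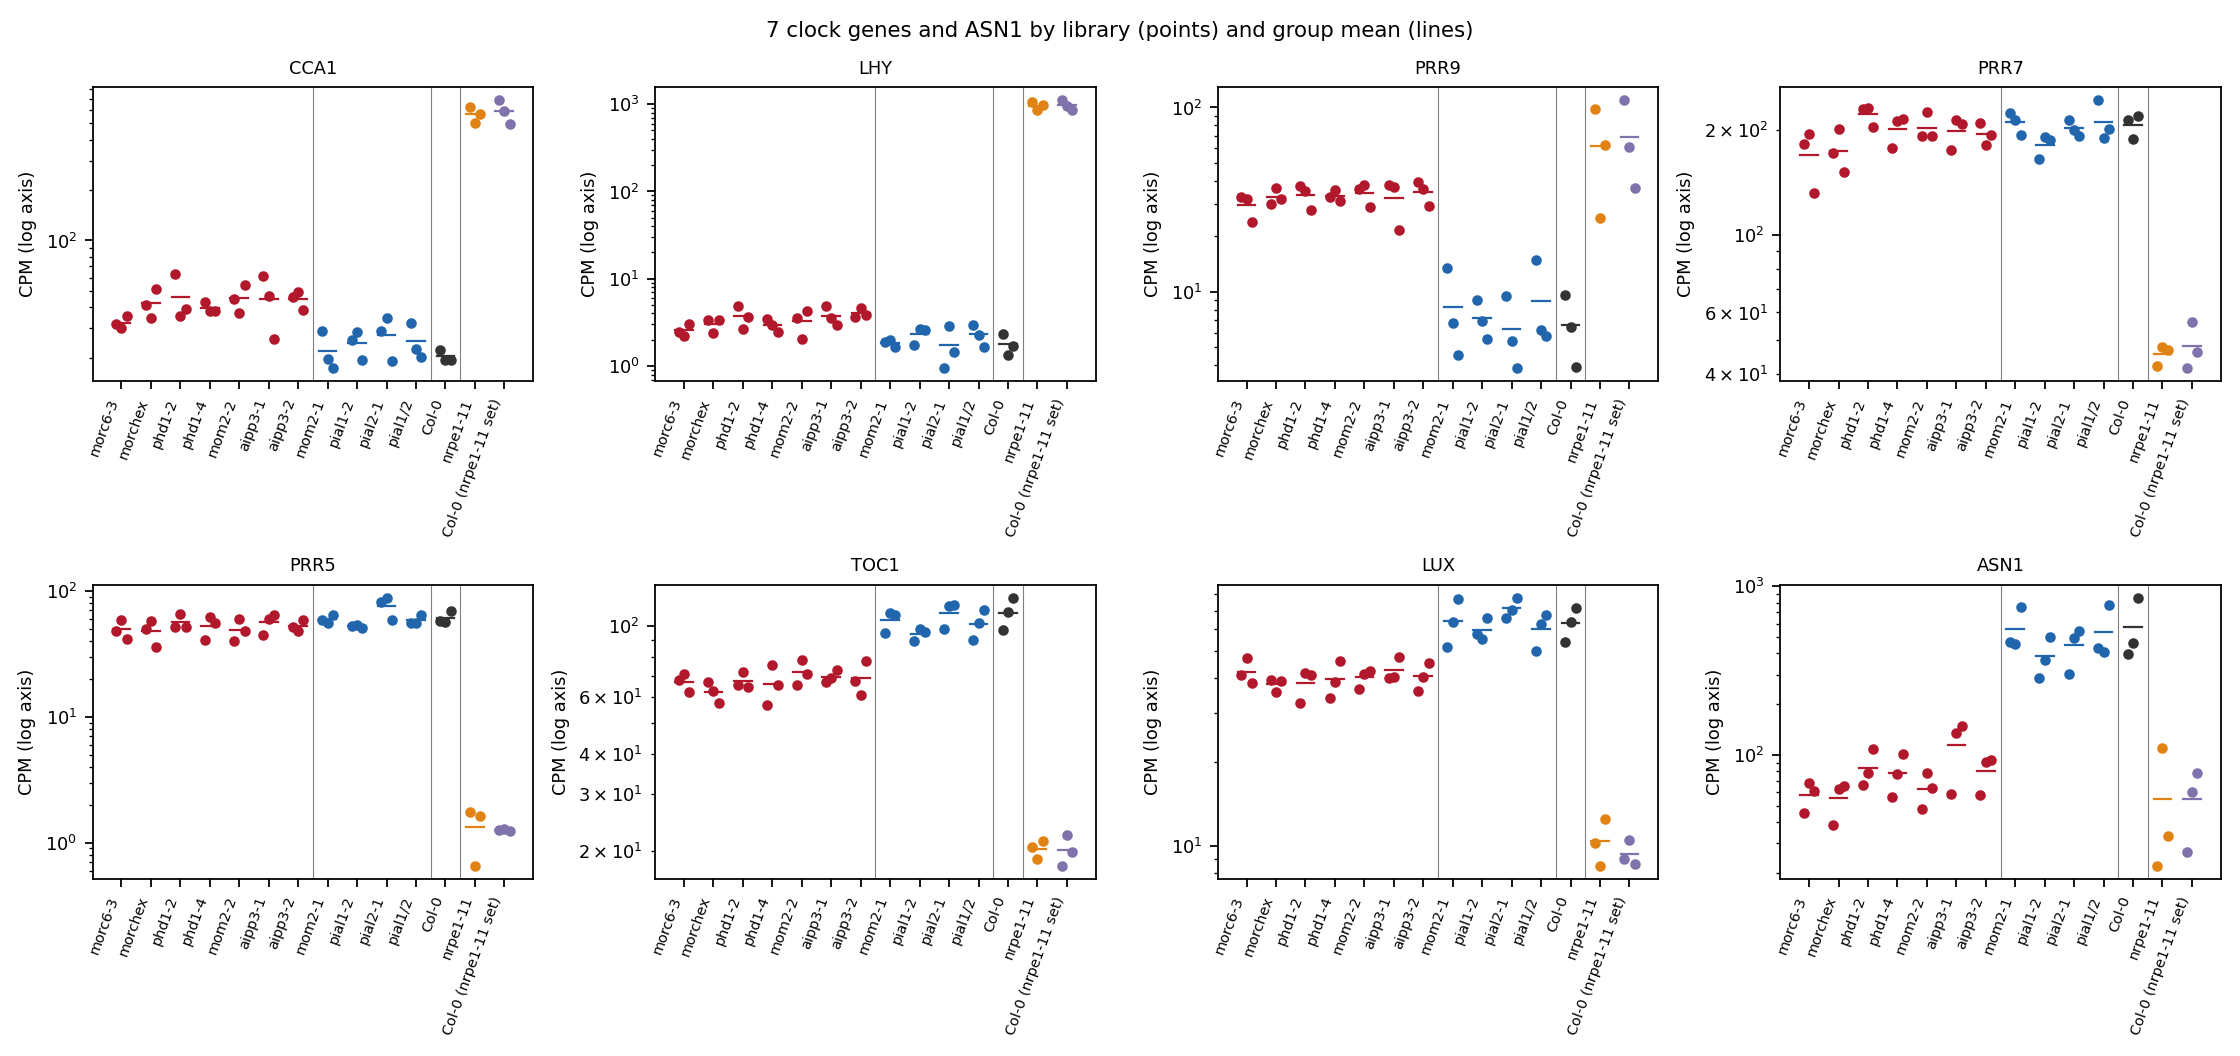
CPM on a log axis in each library (1 point per library) of CCA1, LHY, PRR9, PRR7, PRR5, TOC1, LUX and ASN1, grouped as in the plot of member levels. Against the shared Col-0 and the other 4 mutants, PRR9 is higher in the 7 groups, at 21.7 to 39.5 CPM, and ASN1 is lower, at 38.2 to 149.5 CPM. The nrpe1-11 set has PRR9 at 25.0 to 109 CPM and ASN1 at 22.1 to 110 CPM, with the most CCA1 and LHY and the least PRR5.

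Outputs of the clock and light pathways moved in both directions. CDF1, a relative of CDF3, had 26.7, 31.8 and 37.6 CPM in the 21 libraries, against 9.61, 12.8 and 28.4 CPM in the 12, and was called higher in 6 groups. SPA3, which acts with COP1 in suppressing light responses, had 33.4, 42.5 and 51.5 CPM, against 13.0, 20.8 and 30.2 CPM in the 12, and was also called higher in 6. COR28, a cold-regulated clock component, had 4.79, 6.71 and 11.1 CPM, against 10.0, 16.9 and 33.2 CPM in the 12, and was called lower in 6, and its relative COR27 was called lower in 5. Of the 25 light-signalling and B-box genes outside the members, SPA3 among them, 2 to 4 were called higher in each group and 1, RUP1, lower in aipp3-2, and of the 12 photoperiod and clock outputs, CDF1 and COR28 among them, 0 to 2 were called higher and 0 to 2 lower. Other pathways had few calls. Of 11 genes that were PIF growth regulators or growth targets, 0 or 1 was called higher and 0 or 1 lower in each group. Of 13 flavonoid genes 0 or 1 was called higher. Of 10 cold-regulated genes 0 or 1 was called higher and 0 to 2 lower, and of 11 starch turnover genes 0 were called. Without Col-0 replicate 3, CDF1 was called in 2 groups, SPA3 in 1 and COR27 in 3, and without Col-0 replicate 2, SPA3 and COR27 were called in 2 each.

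Of 5 genes on a list for darkness and sugar starvation, 3 were called lower in each of the 7 groups. GPT2, a plastid sugar phosphate transporter on that list, was called higher in aipp3-2. The genes of the list need not all respond to these conditions in the same direction. ASN1, an asparagine synthetase induced when sugar runs low, had 38.2, 66.1 and 149.5 CPM in the 21 libraries, against 286, 461 and 780.1 CPM in the 12 and 397 to 854 CPM in Col-0, with log2 fold changes of -3.33 to -2.33 (edgeR adjusted p = 0.000514 to 0.018). SEN1 had 24.8, 45.8 and 100.3 CPM, against 117, 166 and 282 CPM in the 12, with log2 fold changes of -2.48 to -1.37 (adjusted p = 0.00154 to 0.0399). DIN10 had 238, 396 and 836 CPM, against 1214, 1828 and 2346 CPM in the 12, with log2 fold changes of -2.45 to -1.65. These were all lower than in the 12 libraries and in Col-0, without overlap. The touch genes TCH3 and TCH4 were each called lower in 6 groups. In the other 4 mutants 0 genes of these lists were called against the same Col-0. The calls depended on single Col-0 libraries: PRR9 alone was called higher and ASN1, SEN1 and DIN10 were called lower in all 7 groups with every library, 7 and 6 list genes were so called without Col-0 replicate 1, 0 and 0 without Col-0 replicate 2, and 0 were called lower in all 7 without Col-0 replicate 3 or without aipp3-1 replicate 2.

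Peaks of AIPP3, PHD1 and PIAL2, proteins of the MOM1 complex, and of PHD3 and MORC6 were compared with the starts of the members. In the paper's pull-downs PHD3 came with AIPP3 and not with MOM1, PIAL2 or PHD1. The paper proposes that AIPP3 belongs to several complexes, the MOM1 complex among them. The ChIP-seq was done in unopened flower buds of plants carrying tagged proteins, a different tissue from the seedlings, and the peaks were called by the authors over Col-0. A peak lay within 500 bp of the start of 15 members for AIPP3, or 26.8% (exact 95% interval 15.8 to 40.3), against 8.52% of 19375 nuclear genes with a mean of at least 1 CPM. For PHD1, a PHD-finger protein of the complex, it was 10 members, 17.9% (8.91 to 30.4), against 4.78% of genes. For PHD3, also a PHD-finger protein, it was 24 members, 42.9% (29.7 to 56.8), against 19.3%. Peaks of PHD1 and PHD3 came from 1 library each, whereas those of AIPP3 had to be present in both replicates. For these factors the interval of the members lay above the share of all genes. It covers counting error only, and the members had a lower median Col-0 level, 6.61 CPM against 17.3 CPM for the genes.

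The shares for the other proteins were near that of all genes. PIAL2 peaks lay at 2 members, 3.57%, against 3.83% of genes, and MORC6 peaks at 4 members, 7.14% (1.98 to 17.3), against 8.25%. A peak of AIPP3, PHD1 or PHD3 lay at 28 members, 50.0%, against 22.5% of genes, and peaks of all 3 proteins at 5 members, 8.93%, against 1.41%. The members with peaks of these 3 proteins were CLH1, ELIP1, AT3G45210, SAUR16 and SAUR21. At ELIP1 the fold enrichment over Col-0 was 3.04 for AIPP3, 2.1 for PHD1 and 3.09 for PHD3. Of the members, AT2G15020 had a MORC6 peak with a fold enrichment of 4.86, and NdhT, a subunit of the chloroplast NDH complex, one of 9.01. LNK3 had a PIAL2 peak with a fold enrichment of 3.04. These examples were chosen after their values were seen, and a peak at a start in buds is not a measurement in seedlings.

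**Figure D5:**
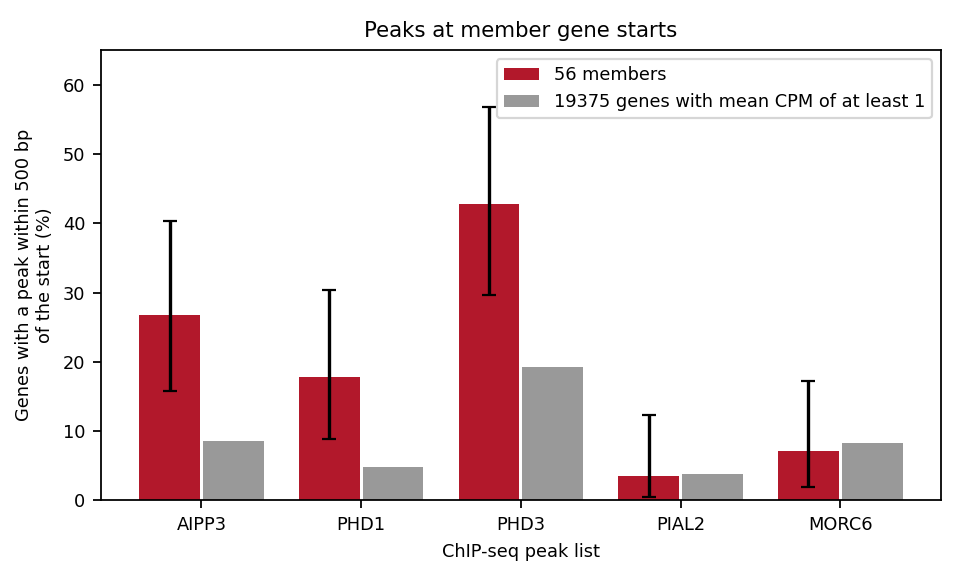
Percent of the 56 members (with exact 95% intervals) and of 19375 nuclear genes with a peak within 500 bp of the start, for AIPP3, PHD1, PHD3, PIAL2 and MORC6. The members have the higher share for AIPP3 (26.8% against 8.52%), PHD1 (17.9% against 4.78%) and PHD3 (42.9% against 19.3%), and similar shares for PIAL2 and MORC6.

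The promoter window of 300 bases, 250 before and 50 from the annotated start, was searched on both strands for 8 motifs of clock, light and growth genes. The HUD element CACATG, short for hormone up at dawn, was in 16 members, 28.6% (17.3 to 42.2), against 12.9% of all 37897 promoters in RefSeq. The morning element CCACAC was in 9, 16.1% (7.62 to 28.3), against 7.78%. The interval of the HUD element alone lay above the share of all promoters. These intervals treat the members as independent and cover counting error only, and no allowance was made for the 8 motifs searched. Both were present at EXPA1, whose promoter is printed above, and SAUR6 held 3 HUD elements, of which 2 lie in the bases shown.

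The intervals of the remaining motifs held the share of all promoters. The evening element AAAATATCT was in 2 members, 3.57%, against 2.49%, the CCA1 binding site AAAAATCT in 4, 7.14%, against 7.13%, and the G-box CACGTG in 4, 7.14%, against 6.46%. The core CCGAC of the dehydration-responsive element was in 9, 16.1%, against 15.3%, and GATAAG in 8, 14.3%, against 15.1%. The telo-box AAACCCTA was in 1, 1.79% (0.045 to 9.55), against 6.17%. The member AT2G15020 held none of the 8. A match is a description of letters in this window and not a binding site.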

How the data were processed

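Stranded polyA RNA libraries of 42 seedling samples were analysed. The authors aligned reads to TAIR10 with Bowtie2 2.4.2 and estimated expression with RSEM, and the deposited expected counts and TPM of each library cover genes and transposable elements. CPM was the expected count over the library total of genes and transposable elements, scaled to a common sum. Expected counts were rounded, kept at a CPM of at least 1 in at least 2 libraries of a fit, and tested in edgeR 4.0.16 (R 4.3.3; TMM, quasi-likelihood test) with Benjamini-Hochberg adjustment over all features, each fit holding only the groups compared. Calls needed an adjusted p below 0.05 and a log2 fold change of at least 1, up or down. The fits recovered 200 of 200 genes changed by a fold of 4 in simulated data for each of the 4 comparisons on members. The simulation used 1 fixed spread for all genes, changed no scarce genes and held no replicate effect. It checks that the fits run properly and does not measure their power for the members. P-values measure the spread between these samples, said to be independent.

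Peaks had been called by the authors per library with MACS2 2.1.2 over Col-0, with a deposited fold enrichment ratio and −log10 q value. They were used where present in both replicates for AIPP3, PIAL2 and MORC6, and from 1 library each for PHD1 and PHD3. A further library of each of these, with another tag for PHD3, was not used. Deposited methylation fractions served only to check that coordinates fit the reference (101 of 101 cytosines matched). Promoters came from RefSeq (TAIR10.1), which held 56 of 56 members.

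Members, gene lists and tests were chosen with earlier results of these data known. Genes named were members in a list, the 12 most abundant, the 12 with the largest smallest ratio, those at the threshold, called members and targeted genes; others are said to be chosen by their values. Alternatives were another normalization and tool (DESeq2 1.42.0), thresholds, offset, filter, TPM, peak window and strength, replicate blocks and leaving out each library.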

Additional observations from a re-analysis of the deposited data

How the results depend on the processing

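The number of members moved with the threshold and with single libraries. It was 208 at 1.5 times and 10 at 3 times, and 53 with TMM-scaled totals, 56 with totals over nuclear genes, 40 with 1 CPM added in place of 0.5 and 57 with TPM, of which 50 were shared. Leaving out 1 library at a time gave 38 to 87, with 87 reached without Col-0 replicate 1, and at least 36 of the 56 were shared each time. In the 4 comparisons that tested members, 0 were called with every library and under DESeq2, no filter on low counts, the replicate block and each left-out library (0 to 0). Over all features, pial1/2 against pial2-1 had 64 calls, against 104 with DESeq2. List genes called higher in all 7 groups were 1, against 2 without the filter on low counts, and 0 to 7 with 1 library left out; those called lower were 3, and 0 to 6 with 1 library left out. All features called higher in all 7 numbered 74, against 112 without Col-0 replicate 1 and 4 without Col-0 replicate 2, and those called lower 138, against 180 and 8, and 29 without Col-0 replicate 3 and 32 without aipp3-1 replicate 2. LHY was called higher in 3 groups, against 0 without Col-0 replicate 2 or 3, and RVE3 in 6, against 1 and 2. COR27 was called lower in 5, against 2 and 3, SPA3 higher in 6, against 2 and 1, and CDF1 higher in 6, against 2 without Col-0 replicate 3. Why these libraries count so much was not tested. With the replicate number as a block, 55, 92, 85 and 127 features were called in the 4 comparisons, against 95, 93, 64 and 121 without it, and 1 and 3 list genes higher and lower in all 7, with no call of a named gene changed. Same-numbered samples correlated above 0.1 for all 3 numbers between pial1/2 and mom2-1 and between pial2-1 and pial1-2. They did not between the other 4 pairs of groups of the F test nor in the comparisons of 2 groups. The main fits therefore did not pair samples by number, although the member median was highest in replicate 1 in 14 of 14 groups. Standard errors and bounds of the members come from these fits and include any spread shared by number. The main limits are 3 libraries per group, a single Col-0 set for 11 mutant groups and an unknown hour of harvest.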
